A study of Mus musculus with 6 samples.

Results

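The clustered protocadherin locus of the mouse was described by whole-genome bisulfite sequencing of embryonic stem cells that carried a single de novo DNA methyltransferase. The locus was taken as chr18:37080001-38010000 of build mm9, a stretch of 930 kb with 11047 CpG sites. A site was a member if it had at least 5 reads in all 3 lines and at most 45, 40 and 80 reads in the DNMT3A2, DNMT3B1 and SETD2 knockout lines. By that rule 3597 sites were members, of 7065841 in the whole series. Positions alone divided them into 875 sites of the alpha cluster (37.09 to 37.35 Mb), 493 of the beta cluster (37.42 to 37.65 Mb), 1689 of the gamma cluster (37.82 to 38 Mb) and 540 between and around these.

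Clustered protocadherins are cell-adhesion proteins of neurons. Each alpha and gamma gene has a large variable exon of its own, with its own promoter, that is spliced to constant exons shared by the cluster, and each beta gene is a single large exon. Neurons use different small sets of these promoters, which is known to give each cell its own surface identity. DNMT3B is known to methylate the variable exons during early development. The RefSeq annotation of assembly GRCm38.p6 lists 14 alpha, 22 beta and 22 gamma genes, 1 of the gamma genes being a pseudogene. That assembly is not the build of the files, so no gene or exon name was given to any position here.

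All 3 lines were embryonic stem cells that lacked DNMT1, which copies methylation after replication, and DNMT3A and DNMT3B, which set it de novo. One line had DNMT3A2 put back, the shorter form of DNMT3A, and another DNMT3B1, a form of DNMT3B. The last line carried DNMT3B1 and was in addition knocked out for SETD2, the enzyme that places the H3K36me3 mark along transcribed genes. The series asks where each enzyme methylates and what SETD2 contributes. The labels name 2 runs for each line, no separate cultures, and not whether a line is a clone. Each line was therefore counted as 1 library without any p-value, and a difference between lines cannot be told apart from a difference between 2 cultures of the same line. The deposited reads on CpG sites came to 200364080, 188661576 and 200947834 for the DNMT3A2, DNMT3B1 and SETD2 knockout lines. The knockout values listed only sites with 10 or more reads. Binomial intervals cover counting error only, since amplified reads are not independent molecules.

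Coverage was uneven over the locus. Members made up 32.6% of its sites, against 35.6% on the autosomes, but 27.1% in alpha and 22.2% in beta against 50.1% in gamma. Sites without any read in the DNMT3A2 line made up 24.6% of alpha and 23.9% of beta, against 6.22% of gamma and 14.1% of the autosomes. The variable exons resemble each other, and how reads that map to several positions were treated is not given in the sources used here. The part this has in the levels was not tested. Over the members, mean coverage was 12.3, 11.8 and 17.9 reads per site, and no site of the locus exceeded the coverage maximum.

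The protocadherin locus was weakly methylated in every line, well under the genome. In the DNMT3A2 line 976 of 44158 reads were methylated, a level of 2.21% (exact 95% binomial interval 2.08 to 2.35). The DNMT3B1 line had 485 of 42464 methylated reads, a level of 1.14% (1.04 to 1.25). The SETD2 knockout line had 1700 of 64214 methylated reads, a level of 2.65% (2.52 to 2.77). These exact intervals of the 3 lines did not overlap, and the knockout was the highest. They take reads at neighbouring CpGs as independent, so they are too narrow to show that the lines differ. On all other autosomal sites the levels were 7.28%, 2.76% and 5.87%, so there the DNMT3A2 line was the highest. The rest of chromosome 18 was close to the autosomes, at 7.82%, 2.97% and 6.31%.

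The locus is rich in CpGs, and methylation varied with CpG density in these cells. On the autosomes it fell from 20 CpGs per kb on, and steeply from 40 on. The locus was therefore set against autosomal sites of the same density. Density counted the CpG sites up to 500 bp before and after a site, with the site itself, and was divided into 6 bins. Matched in this way, 4.82%, 1.86% and 4.11% of the reads of the locus would have been methylated in the DNMT3A2, DNMT3B1 and knockout lines. The observed level was 0.458 times the matched level in the DNMT3A2 line (95% interval 0.396 to 0.530). In the DNMT3B1 line it was 0.613 times (0.512 to 0.734), and in the knockout 0.643 times (0.577 to 0.717). These intervals come from the spread over 807 clusters of 500 bp, since neighbouring CpGs share reads. The same quotient for each of the 19 autosomes lay between 0.936 and 1.05 in all 3 lines. Of 1793 autosomal windows of 930 kb with at least 1000 compared sites, 2 had a lower quotient than the locus in each line. The matching carried part of the deficit, and without it the locus lay at 0.303, 0.414 and 0.451 times the autosomal level.

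Highly methylated single sites were few. A level of 50% or more was reached by 7 members in the DNMT3A2 line, where the densities predicted 46.0 from autosomal sites. In the DNMT3B1 line 12 members reached it, against 13.4 predicted, and in the knockout 8, against 22.8. The number in the DNMT3B1 line was thus the nearest to its prediction.

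The quotient was below 1 along the whole locus and just before it, though not there alone. In steps of 100 kb, all 10 steps inside the locus lay below the matched level in each line, and the upper bound was below 1 in 8, 4 and 6 of them for DNMT3A2, DNMT3B1 and the knockout. The DNMT3A2 quotient ran from 0.211 to 0.725 inside the locus. In the 100 kb just before the locus, which held 91 members, the quotient was 0.297 for DNMT3A2 and 0.254 for DNMT3B1. The step before that was low in DNMT3A2 (0.444) and the knockout (0.581), while the DNMT3B1 interval there included 1. In the first 100 kb after the locus, DNMT3A2 stood at 0.766 (0.594 to 0.987), and the next step at 0.929 (0.789 to 1.09). Farther on, chr18:38710001-38810000 was as low as some steps inside, at 0.656 (0.538 to 0.801), 0.540 (0.386 to 0.756) and 0.633 (0.513 to 0.782) in DNMT3A2, DNMT3B1 and the knockout. Over 500 kb on each side, the quotients were 0.701, 0.812 and 0.741 before the locus and 0.929, 0.899 and 0.994 after it.

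**Figure D1:**
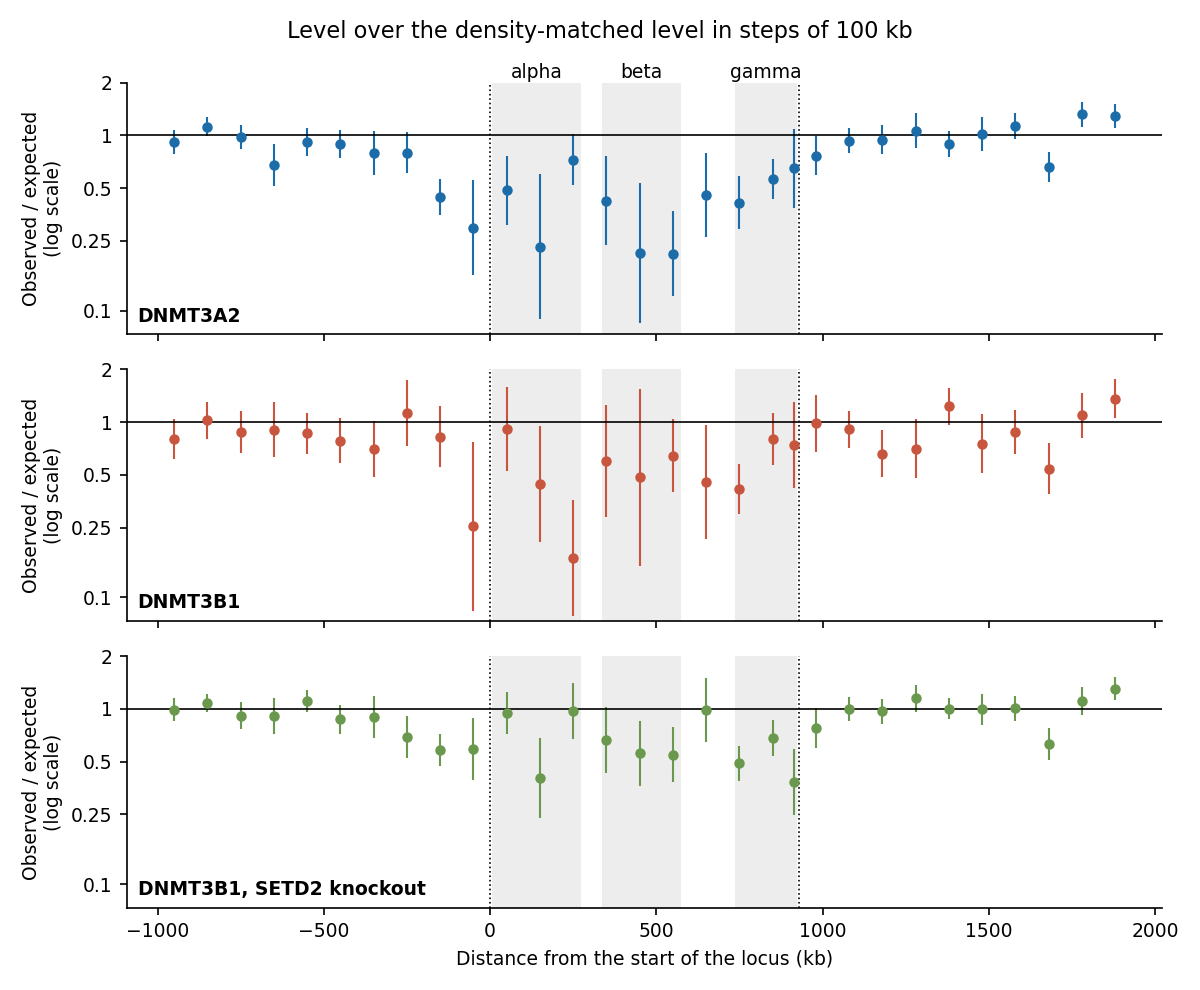
Observed over density-matched methylation (log scale) in steps of 100 kb from 1000 kb before the start of the locus to 1000 kb after its end, with 95% intervals, 1 panel per line. Grey bands mark alpha, beta and gamma, dotted lines the edges of the locus, and the last step inside is 30 kb; all 10 steps inside lie under 1 in every line.

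Among the 3 clusters, beta lay lowest against matched sites in DNMT3A2, while the DNMT3B1 intervals of the clusters overlapped widely. Alpha, which holds its variable exons in a row before the shared exons, had levels of 1.93% (1.68 to 2.21), 0.965% (0.786 to 1.17) and 3.06% (2.80 to 3.35) in the DNMT3A2, DNMT3B1 and knockout lines. Against matched sites this was 0.574 times for DNMT3A2, 0.695 times for DNMT3B1 (0.439 to 1.10) and 0.940 times for the knockout (0.760 to 1.16). The last 2 intervals included 1, but these values average over sparse and dense sites. At alpha sites below 40 CpGs per kb the quotients were 0.454 (0.263 to 0.783) for DNMT3B1 and 0.667 (0.513 to 0.866) for the knockout. At 40 or more they were 1.99 (0.961 to 4.11) and 2.27 (1.68 to 3.07).

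Beta, the cluster of single-exon genes, had levels of 1.80%, 1.43% and 2.93%. It had the lowest DNMT3A2 quotient of the 3 clusters, 0.266 (0.169 to 0.417), with 93 methylated reads where 349.8 were predicted. Its DNMT3B1 quotient was 0.587 (0.369 to 0.934) and its knockout quotient 0.549 (0.403 to 0.748). Gamma, whose variable exons precede shared exons as in alpha, had levels of 2.42%, 1.08% and 2.26%. Its quotients were 0.529, 0.616 and 0.585, all with upper bounds below 1. Gamma was the only cluster in which the knockout level was not above the DNMT3A2 level, and their exact intervals overlapped there.

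Between lines, the locus kept relatively more DNMT3B1 than DNMT3A2 methylation. Ratios are given as the log2 ratio of 2 lines minus the log2 ratio predicted from density-matched sites. For DNMT3B1 over DNMT3A2 this was 0.42 (0.12 to 0.72), a relative excess of 1.34-fold. Of the 1793 autosomal windows, 45 (2.51%) had a higher value. In beta it was 1.14 (0.29 to 1.99), a 2.21-fold relative excess, although the DNMT3B1 level there was still the lower of the 2. At beta sites below 20 CpGs per kb the order turned, with 33 of 2002 methylated reads in DNMT3A2 (1.65%) and 38 of 1884 in DNMT3B1 (2.02%), whose exact intervals overlapped. Of these 38 reads, 10 came from 3 members in chr18:37610001-37620000, where DNMT3A2 had 0 of 22, so the turn rests on few sites. Over all of beta, 13 more of the 78 methylated DNMT3B1 reads lay in chr18:37510001-37520000, with 13 members. Both tiles were picked after their values were seen, and beta was not recomputed without them. In alpha the relative log2 ratio was 0.28 (-0.53 to 1.08) and in gamma 0.22 (-0.17 to 0.61). Both of those intervals included 0 and overlapped that of beta, and no test of the difference between clusters was made. The excess was not confined to beta: the 400 sites between beta and gamma stood at 0.84 (0.14 to 1.54).

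Loss of SETD2 was accompanied by no detectable departure of the locus from the genome. The knockout level was 2.32 times the DNMT3B1 level in the locus and 2.13 times on the autosomes. The relative log2 ratio of the knockout over DNMT3B1 was 0.07 (-0.21 to 0.35), and 554 of 1793 windows lay above it. It was 0.44 (-0.23 to 1.11) in alpha, -0.10 (-0.87 to 0.68) in beta and -0.07 (-0.46 to 0.31) in gamma. The interval of the locus overlapped that of DNMT3B1 over DNMT3A2 (0.42, 0.12 to 0.72), and the difference between these comparisons was not tested. The intervals of alpha and beta reached past 0.42. Only the 59 sites between alpha and beta gave an interval without 0, of 1.67 (0.09 to 3.25), and it rests on 4 methylated reads in the DNMT3B1 line.

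The 2 lines with DNMT3B1 share the enzyme, and each was also set against the DNMT3A2 line. The knockout over DNMT3A2 gave 0.49 (0.25 to 0.73) over the locus, with 40 windows (2.23%) higher. It gave 0.71 (0.25 to 1.18) in alpha, 1.05 (0.45 to 1.64) in beta and 0.15 (-0.22 to 0.51) in gamma. Between beta and gamma it gave 1.06 (0.47 to 1.64). With at least 10 reads asked of each site, the alpha value was 0.64 and its interval included 0 (-0.08 to 1.37). Both comparisons with DNMT3A2 share that line's reads.

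**Figure D2:**
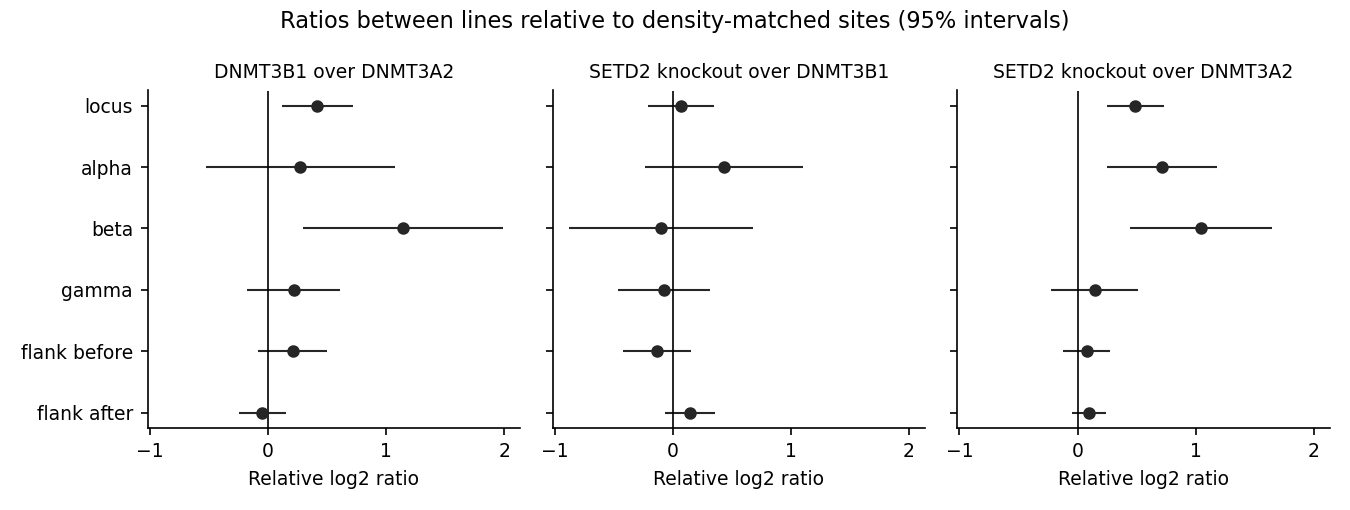
Relative log2 ratio between lines (horizontal axis) for the locus, its 3 clusters and the 500 kb flanks before and after it, 1 panel per comparison, with 95% intervals over 500 bp clusters of CpGs. Against DNMT3A2 the locus and beta lie above 0 for both DNMT3B1 lines, and the flanks include 0 in every panel.

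CpG density separated sparse from dense sites of the locus. Below 20 CpGs per kb, the 1013 members had levels of 4.05%, 1.77% and 4.37% in the DNMT3A2, DNMT3B1 and knockout lines, where autosomal sites predicted 8.40%, 3.24% and 6.94%. At 20 to 39 CpGs per kb, the 1309 members had 1.96%, 1.32% and 2.46%, against 6.77%, 2.45% and 5.04%. The DNMT3A2 quotient was lowest in that class, at 0.290 (0.226 to 0.373), beside 0.539 for DNMT3B1 and 0.487 for the knockout.

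At 40 or more CpGs per kb, the locus lay above the autosomal sites rather than below them. Its 1275 members there had 1.19% (207 of 17324 reads), 0.546% and 1.52%, against 0.717%, 0.357% and 0.965%. The quotients were 1.67 (1.17 to 2.38) for DNMT3A2, 1.53 (0.982 to 2.38) for DNMT3B1 and 1.57 (1.26 to 1.97) for the knockout. The 500 kb flanks had quotients of 1.60 (0.768 to 3.31), 1.23 (0.702 to 2.15) and 1.19 (0.725 to 1.94) at such sites, so the excess of the locus is not shown to differ from that of its surroundings. It also depends on how density is measured. With CpGs counted within 250 bp on each side, the log2 quotient of such sites turned to -0.56 (-1.03 to -0.08) for DNMT3A2, -0.16 for the knockout and -0.10 for DNMT3B1.

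The densest sites, at 60 or more CpGs per kb, had 0.901% methylated reads in the DNMT3A2 line (46 of 5105) and 0.899% in the knockout (59 of 6562). Autosomal sites of that density had 0.209% and 0.462%. DNMT3B1 had 9 of 4621 methylated reads there, 0.195%, against 0.153%. The log2 quotients were 2.11 (1.00 to 3.21) for DNMT3A2, 0.96 (0.10 to 1.82) for the knockout and 0.35 (-0.69 to 1.39) for DNMT3B1. Finer bins of density lowered them to 1.58, 0.64 and 0.08 in that order, and the DNMT3A2 interval alone still excluded 0 (0.50 to 2.66). With CpGs counted within 1000 bp on each side no interval excluded 0, and the knockout value was -0.28. In the alpha cluster, sites at 40 or more CpGs per kb had a knockout level of 2.28% against 1.00% predicted, a quotient of 2.27 (1.68 to 3.07). In gamma the knockout quotient of such sites was 1.00 (0.697 to 1.44).

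**Figure D3:**
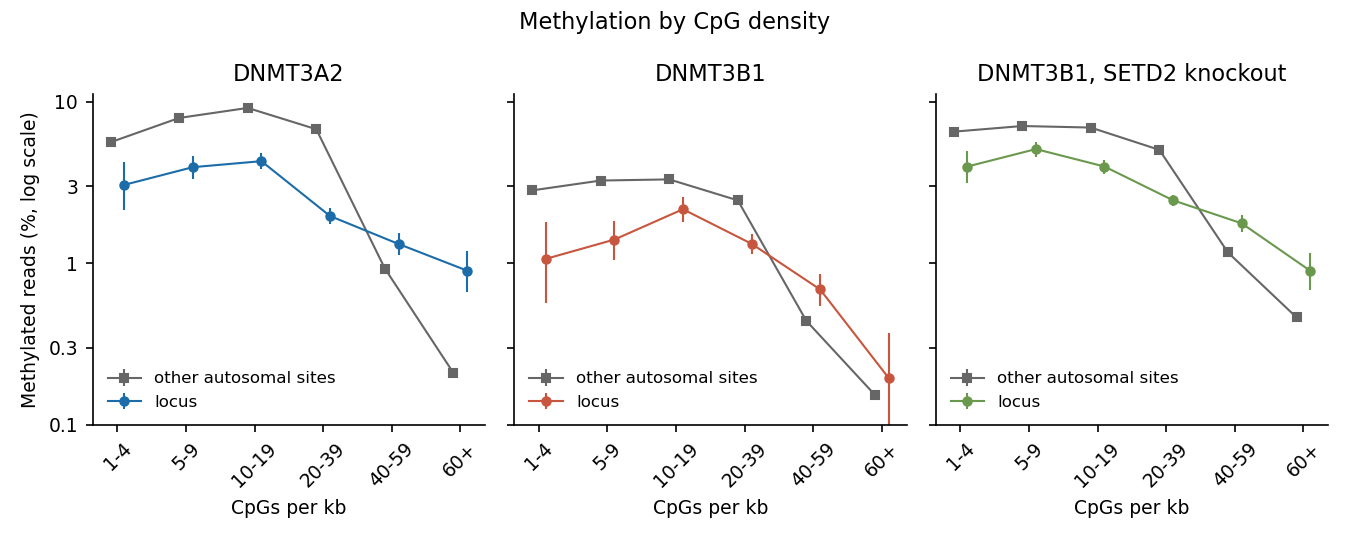
Methylated reads (percent, log scale) against CpGs within 1 kb for the locus (coloured circles) and all other autosomal sites (grey squares), 1 panel per line, with exact 95% binomial intervals. The locus lies under the autosomal sites up to 39 CpGs per kb and above them from 40 CpGs per kb on.

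Of the 93 tiles of 10 kb in the locus, 45 held at least 20 members and were compared: 13 in alpha, 9 in beta, 16 in gamma and 7 elsewhere. Their median level was 1.77% for DNMT3A2, 0.982% for DNMT3B1 and 2.51% for the knockout, against 8.03%, 2.79% and 6.51% over 109716 autosomal tiles. Levels ranged from 0% to 12.4% in DNMT3A2, from 0% to 3.39% in DNMT3B1 and from 0.536% to 9.72% in the knockout. Below the density-matched level were 42, 37 and 39 of the 45 tiles, where 51.3%, 55.5% and 50.4% of autosomal tiles were.

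A tile was called lower than its matched level at a difference of at least 2-fold with a 95% interval excluding 0. In the DNMT3A2 line 18 of 45 tiles were so called, where 6.4% of all autosomal tiles were. In the knockout 11 tiles were called lower (3.95% of autosomal tiles), and in the DNMT3B1 line 4 (5.47%). No tile was called higher in any line, where 1.71%, 3.75% and 0.76% of autosomal tiles were for DNMT3A2, DNMT3B1 and the knockout. The DNMT3B1 tiles rest on few methylated reads, 41 at most, so a 2-fold deficit was often not detectable at this depth.

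**Figure D4:**
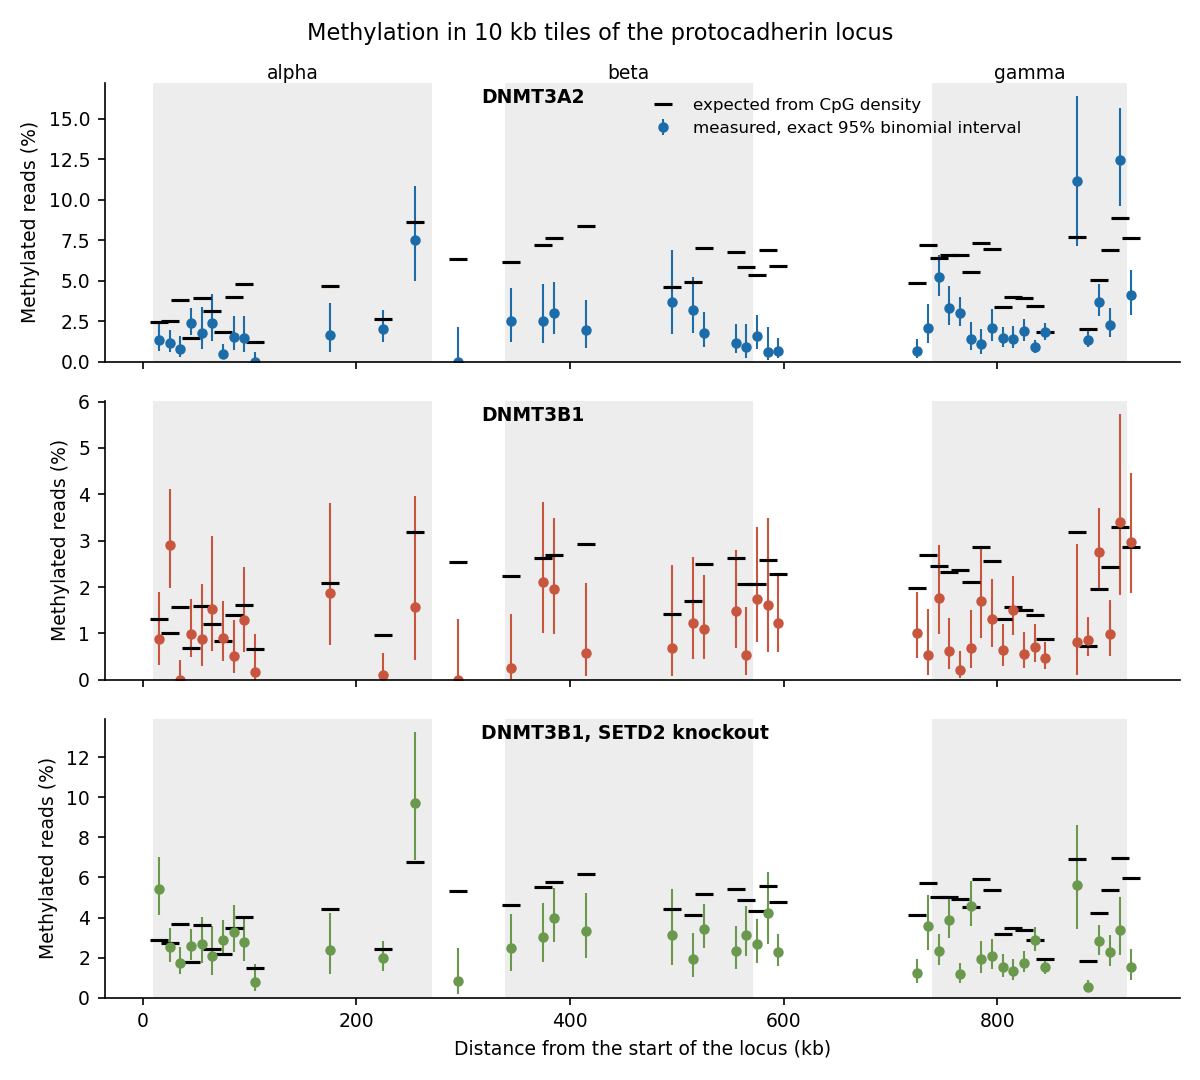
Methylated reads (percent) in the 45 compared tiles of 10 kb against distance from the start of the locus, 1 panel per line, with exact 95% binomial intervals. Black bars give the level predicted from CpG density and grey bands mark the clusters; in DNMT3A2 42 of 45 tiles lie under their bar, and the scales of the panels differ.

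The order of the lines in tiles also differed from that over all autosomal tiles, which were not matched on CpG density or read count. DNMT3A2 was above DNMT3B1 in 33 of 45 tiles and not above it in 12 (26.7%), where 4.95% of autosomal tiles were not above. The knockout was above DNMT3A2 in 28 tiles (62.2%), against 31.5%. The knockout was above DNMT3B1 in 40 tiles (88.9%), against 93.7%. On autosomal sites at 40 to 59 CpGs per kb the knockout (1.17%) was already above DNMT3A2 (0.929%), and DNMT3B1 below it (0.440%). At 20 to 39 the knockout (5.04%) was below DNMT3A2 (6.77%). Some orders rest on few methylated reads, as in chr18:37650001-37660000, with 10 of 632 in DNMT3A2 and 9 of 514 in DNMT3B1. Tiles shared little of their order across lines. Spearman's rho over the 45 tiles was 0.27 for DNMT3A2 with DNMT3B1, 0.27 for DNMT3A2 with the knockout and 0.18 for the 2 lines with DNMT3B1. These points share their CpG densities and mapping, and rho with density was -0.46, -0.33 and -0.41 for DNMT3A2, DNMT3B1 and the knockout. Counting error at such low methylated read counts, 41 at most per tile in DNMT3B1, lowers rho. The low values therefore do not show that the lines differ in the order of tiles.

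For ratios, a tile was called against the genome-wide ratio by the same 2-fold and interval rule. The relative log2 ratios of tiles are thus not matched on CpG density, unlike those of the locus and its clusters. DNMT3B1 over DNMT3A2 was called higher in 6 of 45 tiles (4.05% of autosomal tiles) and lower in 0 (4.24%). The highest was chr18:37100001-37110000 in alpha, with 13 of 1123 methylated reads in DNMT3A2, 31 of 1064 in DNMT3B1 and 36 of 1434 in the knockout. Its relative log2 ratio was 2.73 (0.28 to 5.19), and here the DNMT3B1 level itself was the higher one. Next came chr18:37150001-37160000 in alpha, at 2.37, with levels of 0.463%, 0.903% and 2.90%. The tile chr18:37670001-37680000, between beta and gamma, followed at 2.36, with 0.631%, 1.23% and 2.26%. Matched on density, these 3 tiles stood at 2.67, 2.10 and 2.33.

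The lowest DNMT3B1 over DNMT3A2 tile was chr18:37840001-37850000 in gamma. It had 45 of 1498 methylated reads in DNMT3A2 and 3 of 1404 in DNMT3B1, a relative log2 ratio of -2.41 (-5.15 to 0.32). The next were chr18:37950001-37960000 in gamma, at -1.78, and chr18:37300001-37310000 in alpha, at -1.29, with 1 methylated read in 953 for DNMT3B1. All 3 intervals included 0. A line with fewer than 3 methylated reads was set to 3 here, so the last 2 values are held nearer to 0 by that floor.

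The knockout over DNMT3B1 was called higher in 1 tile (4.1% of autosomal tiles) and lower in 3 (3.2%). The 1 higher tile was chr18:37830001-37840000 in gamma, at 1.57 (0.15 to 2.99). It lies outside the naming rule, was chosen after its values were seen, and had 6 of 975 methylated reads in DNMT3B1 and 59 of 1516 in the knockout. The 3 lower tiles were all in gamma. Among them chr18:37960001-37970000 had 0.866% in DNMT3B1 and 0.536% in the knockout, a relative log2 ratio of -1.78 (-3.49 to -0.08). The other two, named after their values were seen, were chr18:37890001-37900000 at -1.25 and chr18:37970001-37980000 at -1.05.

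Another 3 tiles ranked above the called one without being called, because their intervals included 0. They were chr18:37810001-37820000 at 1.68, chr18:37850001-37860000 at 1.64 and chr18:37160001-37170000 at 1.62. Their DNMT3B1 levels rested on 3, 6 and 4 methylated reads. At the low end stood chr18:38000001-38010000, the last tile of the locus, at -2.06 (-4.16 to 0.04), and chr18:37370001-37380000 at -1.42, where DNMT3B1 had 0 of 278 methylated reads and the value is set by the floor of 3.

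The knockout over DNMT3A2 was called higher in 7 tiles (3.81% of autosomal tiles) and lower in 0 (2.33%). The highest was again chr18:37150001-37160000 in alpha, at 2.96 (1.49 to 4.43), with 5 of 1081 methylated reads in DNMT3A2 and 44 of 1517 in the knockout. It was followed by chr18:37660001-37670000 at 2.53, with 2 methylated reads in DNMT3A2, and by the first tile of alpha at 2.34. In the latter the knockout stood at 5.44% (56 of 1030), DNMT3A2 at 1.33% and DNMT3B1 at 0.878%. Matched on density, the 3 highest tiles stood at 2.40, 2.52 and 1.80. The lowest were the last tiles of the locus, chr18:37990001-38000000 at -1.57 and chr18:38000001-38010000 at -1.13, and chr18:37840001-37850000 at -1.05, all with intervals including 0. The first of these lowest tiles had the highest DNMT3A2 level of the compared tiles, 61 of 491 reads (12.4%), and also the highest DNMT3B1 level, 13 of 383 (3.39%).

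CpG-dense stretches were then followed one by one, since variable exons and promoters of these genes are known to be CpG-rich. A stretch was a run of at least 15 sites with 30 or more CpGs per kb around each and gaps of at most 500 bp. The locus held 69, of which 17 lay in alpha, 17 in beta, 23 in gamma and 12 elsewhere, and 50 had at least 100 reads in each line. Inside the 69 stretches the pooled levels were 1.36%, 0.762% and 1.65%, against 1.04%, 0.473% and 1.15% in autosomal stretches. Outside them the levels were 3.43%, 1.68% and 3.95%, against 8.41%, 3.18% and 6.74%. The stretches of the locus were less dense than those of the autosomes, with medians of 43.8 and 52.3 CpGs per kb where every line had 100 reads or more. Matched on density, the pooled sites of the locus were below autosomal sites inside the stretches as well as outside them. Stretches take in sites from 30 CpGs per kb, not only those at 40 or more. The quotients inside were 0.496 (0.377 to 0.651) for DNMT3A2, 0.685 (0.497 to 0.945) for DNMT3B1 and 0.665 (0.547 to 0.807) for the knockout. Outside they were 0.439, 0.574 and 0.633, and their intervals overlapped those inside. Autosomal stretches with 100 reads or more in each line were also below matched sites, at 0.612, 0.697 and 0.741. Such stretches of the locus stood at 0.520, 0.670 and 0.692, so a deficit particular to the locus is not shown inside dense stretches. Inside the alpha stretches the quotients were 1.10 (0.612 to 1.97) for DNMT3B1 and 1.28 (0.971 to 1.68) for the knockout. In beta they were 0.622 and 0.429, and in gamma 0.569 and 0.505.

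Alpha held 14 long stretches, meaning at least 2 kb with a mean of 40 to 60 CpGs per kb, and gamma held 10. In the 14 of alpha, the DNMT3A2 level was 1.14% (82 of 7171), the DNMT3B1 level 0.984% (68 of 6912) and the knockout level 2.71% (268 of 9895). In the 10 of gamma the levels were 1.23%, 0.705% and 1.41%, and in 629 such stretches of the autosomes 1.39%, 0.615% and 1.58%. Alpha thus stood apart from gamma mainly in the knockout, whose exact intervals of 2.40 to 3.05 and 1.22 to 1.62 did not overlap. These intervals too take reads at neighbouring CpGs as independent. The knockout level was above 1% in 13 of the 14 in alpha and in 8 of the 10 in gamma, where it was in 56.1% of the autosomal ones. The DNMT3B1 level was above 1% in 6 of the 14 in alpha and 3 of the 10 in gamma, where it was in 14.1% of the autosomal ones. These shares were not matched on density. Against matched sites, the knockout quotients were 1.27 in alpha, 0.673 in gamma and 0.906 in the autosomal ones. For DNMT3B1 they were 1.12, 0.755 and 0.837, and for DNMT3A2 0.549, 0.559 and 0.757. Gamma thus lay below the autosomal ones by this measure in each line. Without the long alpha stretch that held the most methylated reads in the line, the DNMT3A2 level was 0.899% and the DNMT3B1 level 0.683%. These stretches share their chromosome and library and are not replicates of a line.

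Within the alpha set the lines ranked the stretches differently. The most methylated in the knockout was chr18:37098797-37101232, with 31 of 624 reads (4.97%), beside 0.831% in DNMT3A2 and 0.791% in DNMT3B1. The stretch chr18:37089752-37092281 had 40 of 924 in the knockout (4.33%), 8 of 664 in DNMT3A2 and 0 of 546 in DNMT3B1, which allows a share of up to 0.549%. The most methylated in DNMT3B1 was chr18:37105710-37108138, with 25 of 619 reads (4.04%), beside 0.967% in DNMT3A2 and 1.87% in the knockout. These 25 reads lie in the alpha tile with the highest DNMT3B1 over DNMT3A2 ratio.

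Several alpha stretches had no methylated read at all in a line. In DNMT3A2 these were chr18:37179727-37182185, with 0 of 606 reads, and chr18:37170305-37172744, with 0 of 388, which allow shares of up to 0.495% and 0.773%. The second had 7 of 539 methylated reads in DNMT3B1 and 25 of 636 in the knockout. In DNMT3B1, chr18:37112230-37114721 had 0 of 672 and chr18:37302941-37304645 0 of 711, where the knockout had 23 of 1334 and 5 of 1040. The last of these was the densest of the locus, at 68.9 CpGs per kb.

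Gamma and beta held the most methylated stretches of DNMT3A2. The gamma stretch chr18:37841173-37842386 had 23 of 136 methylated reads (16.9%, 11.0 to 24.3) in DNMT3A2, from 8 members. It had 0 of 112 reads in DNMT3B1 and 0 of 142 in the knockout, which allow up to 2.68% and 2.11%. Without it the DNMT3A2 level of the locus was 2.16%, and the log2 quotient of sites at 40 or more CpGs per kb was 0.58 (0.07 to 1.10). The beta stretches chr18:37572858-37573590 (8 of 118 reads, 6.78%) and chr18:37596556-37597512 (12 of 246, 4.88%) followed. The first of the pair was also the second highest in the knockout, with 8 of 177 reads.

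The remaining stretches at the ends of the order had at most 20 methylated reads in any line. For DNMT3A2 the third lowest was chr18:37845019-37846188 in gamma, with 0 of 356 reads, 0 of 409 in DNMT3B1 and 4 of 651 in the knockout. In DNMT3B1 the lowest was chr18:37906582-37909407 in gamma, with 0 of 862 reads, where DNMT3A2 had 20 of 892 and the knockout 15 of 1537. After the alpha stretch, the highest in DNMT3B1 were chr18:37657492-37658907, between beta and gamma, with 5 of 163 reads, and chr18:37638980-37639600 in beta, with 5 of 187. In the knockout the lowest were chr18:37981332-37982491 in gamma, with 0 of 292, and chr18:37645807-37646994 in beta, with 0 of 221.

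**Figure D5:**
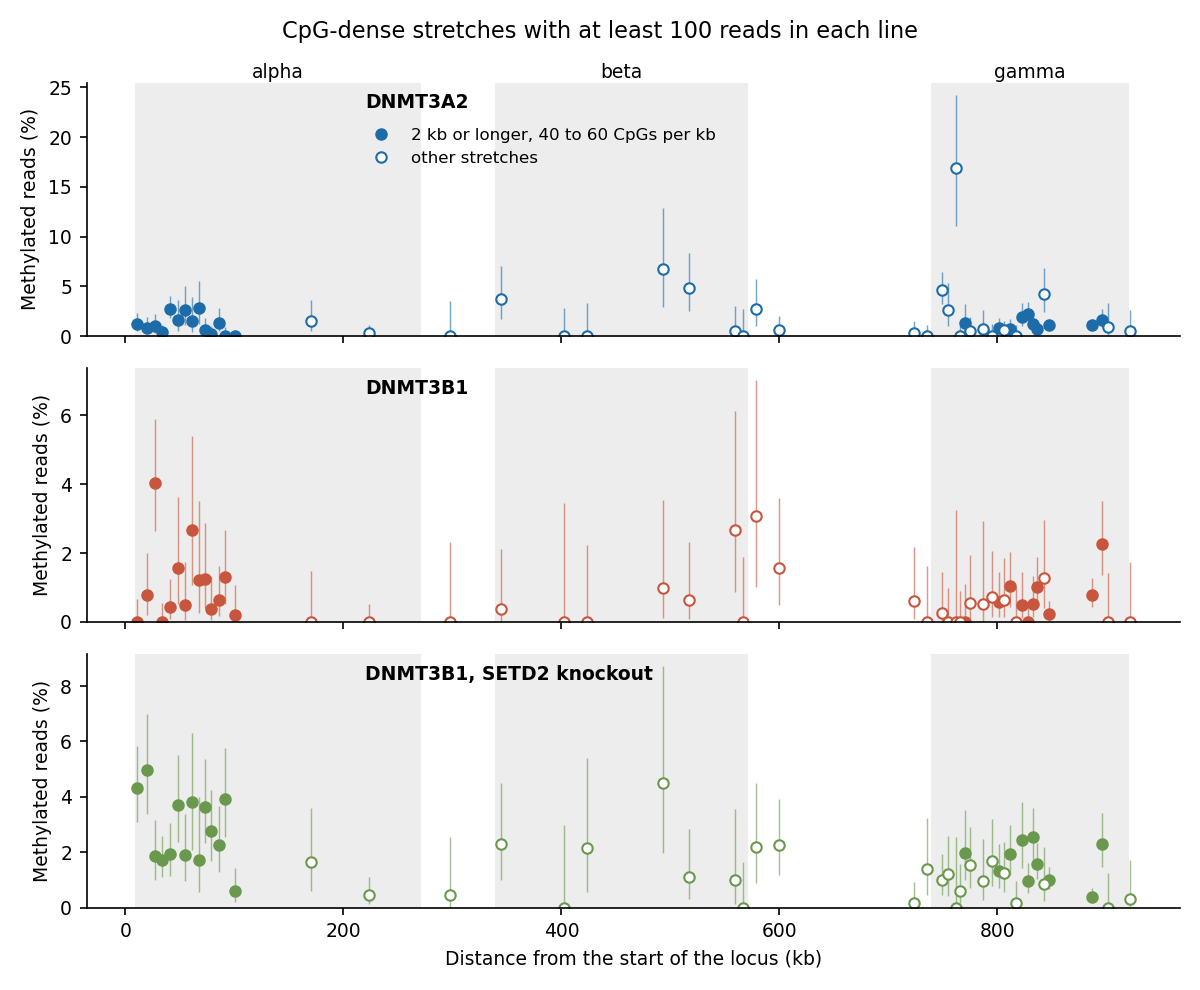
Methylated reads (percent) of the 50 dense stretches with at least 100 reads in each line against distance from the start of the locus, 1 panel per line, with exact 95% binomial intervals. Filled circles are the 14 long stretches of alpha and the 10 of gamma; in the knockout 13 of the 14 in alpha lie above 1%, and the scales of the panels differ.

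Each long stretch was also divided into 4 equal segments from its lower coordinate, and the first segment was the least methylated in gamma in all 3 lines. It had 8 of 2179 reads in DNMT3A2 (0.367%), 2 of 1964 in DNMT3B1 (0.102%) and 17 of 3626 in the knockout (0.469%). The other segments of gamma ranged from 1.24% to 1.88% in DNMT3A2, from 0.718% to 1.28% in DNMT3B1 and from 1.28% to 2.36% in the knockout. In alpha the first segment had 0 of 742 reads in DNMT3A2 (which allows up to 0.404%) and 26 of 1318 in the knockout (1.97%), the lowest of the segments in both. In DNMT3B1 the lowest alpha segment was the third, with 3 of 1181 reads, and the highest the fourth, with 54 of 3927 (1.38%). Sites were unevenly spread in alpha, with 75, 94, 111 and 283 in the 4 segments, against 190, 214, 163 and 185 in gamma. Pooled levels of the long alpha stretches therefore weigh most on the fourth segment.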

How the data were processed

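Whole-genome bisulfite sequencing was deposited for 6 runs of 3 lines, which the sample titles put in 3 groups. Per the file headers, the deposited values are the count of reads and the count of methylated reads at each CpG, both strands together, for each line and not for each run. The knockout table also gives the methylated fraction, which per the file headers is a value of its own; it equalled methylated over total reads at every site to within 1e-06 and served as a check. The 2 knockout files were identical and counted once, so it is not known whether they hold 1 run or both. The submitters' processing notes name build mm9. Which aligner and caller were used, how duplicates were handled and how complete conversion was is not given in the sources used here.

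A level is the pooled methylated over the pooled total reads of a set of sites, with an exact 95% interval (Clopper-Pearson). Expected levels weight 6 autosomal density bins, with the locus left out, to the reads of a region. Intervals of quotients and ratios come from a ratio estimator over 500 bp clusters, with at least 3 methylated reads assumed; they cover reads and clusters, not cultures. The procedure was tested on simulated data with the coverage of another chromosome and, for tiles, raised methylation levels. The levels of the locus itself were not simulated. An upper limit for a count of 0 is 3 reads. Named regions are the 3 clusters, the 3 highest and 3 lowest tiles of each comparison, and the 3 most and 3 least methylated stretches of each line, with at least 100 reads in each line. The members and lists were chosen with earlier results of these data known. The software was scipy 1.17.1, pandas 2.3.3 and numpy 2.4.6 under Python 3.11.15, with figures from matplotlib 3.10.9. No sequence was printed.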

Additional observations from a re-analysis of the deposited data

Results flagged for a closer look

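The 5 differences between lines given here had intervals that excluded 0, which is what drew attention to them. Over the locus, the relative log2 ratio was 0.42 for DNMT3B1 over DNMT3A2 and 0.49 for the SETD2 knockout over DNMT3A2. In alpha the knockout over DNMT3A2 stood at 0.71. In beta, DNMT3B1 over DNMT3A2 stood at 1.14 and the knockout over DNMT3A2 at 1.05. All 5 use the same DNMT3A2 reads, so they are not independent of each other, and each line was 1 library.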

How the results depend on the processing

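No paired analysis was possible because each line is 1 library and the deposited columns carry no run numbers; for the same reason no replicate could be left out. Of 411 recomputed values over 58 results, 350 kept their direction and side of the threshold, or moved less than their interval or 1.5-fold for counts. The locus quotients stayed below the matched level under all alternatives run: the range was 0.303 to 0.543 in DNMT3A2, 0.414 to 0.752 in DNMT3B1, and 0.451 to 0.710 in the knockout. The locus ratios against DNMT3A2 stayed between 0.37 and 0.56 for DNMT3B1 and between 0.39 and 0.57 for the knockout. Subtracting each line's level at the densest autosomal sites as background, an alternative added after seeing the data, gave 0.42 and 0.46.

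Density within 250 bp reversed sites at 40 or more CpGs per kb to -0.56 (DNMT3A2) and -0.16 (knockout). Density within 1000 bp gave 1.36 for DNMT3B1 at 40 or more, 1.01 for DNMT3A2 and a reversed -0.28 for the knockout at 60 or more, and stretch levels of 1.63% (DNMT3A2) and 2.00% (knockout). A minimum of 1 read gave a knockout level of 2.84% in the locus, 0.66 for DNMT3B1 at 40 or more CpGs per kb, 3 tiles higher for the knockout over DNMT3B1, and in DNMT3B1 1 tile above and 8 below the matched level, of 59. A minimum of 10 reads gave levels of 2.01% (DNMT3A2) and 2.41% (knockout) in the locus, 1.61% and 2.38% in alpha, 3.37% for the knockout in beta and 2.39% for the knockout in the long alpha stretches. It also gave 0.64 for the knockout over DNMT3A2 in alpha, 0.98 for the knockout at 60 or more CpGs per kb, 0 tiles higher for the knockout over DNMT3B1, and 8, 1 and 4 tiles below the matched level, of 29. On sites of the DNMT3A2 and DNMT3B1 lines alone, the DNMT3B1 level was 1.28%, alpha stood at 0.66 with an interval excluding 0, 1 tile was lower for DNMT3B1 over DNMT3A2, and 30 (DNMT3A2) and 10 (DNMT3B1) of 66 tiles lay below the matched level.

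Tiles of 5 kb (60) gave 3 higher and 1 lower for DNMT3B1 over DNMT3A2, 2 higher for the knockout over DNMT3B1, 1 lower for the knockout over DNMT3A2, 11 below the matched level in DNMT3A2 and 2 above it in DNMT3B1. Tiles of 50 kb (18) gave 1 lower for DNMT3B1 over DNMT3A2, 0 lower for the knockout over DNMT3B1, 4 higher for the knockout over DNMT3A2, and 9 (DNMT3A2) and 3 (knockout) below the matched level. Any 2-fold difference, whatever its interval, gave 13 higher and 4 lower for DNMT3B1 over DNMT3A2, 11 and 7 for the knockout over DNMT3B1, 19 and 4 for the knockout over DNMT3A2, 30 below the matched level in DNMT3A2, and 1 above and 17 below in DNMT3B1. A density-matched tile ratio gave 1 lower for the knockout over DNMT3A2. Finer density bins, added after seeing the data, gave 1 tile above and 2 below for DNMT3B1, 1 above for the knockout, and 0.64 for the knockout at 60 or more CpGs per kb. A stretch threshold of 20 CpGs per kb gave stretch levels of 1.56%, 0.934% and 1.99%, and one of 40 gave 1.20% (DNMT3A2) and 0.553% (DNMT3B1). Without the richest long alpha stretch, levels there were 0.899% (DNMT3A2) and 0.683% (DNMT3B1). The cause of these shifts was not tested, and low methylated read counts, above all in DNMT3B1, limit what single tiles and stretches can show.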
